A study of Homo sapiens and Mus musculus with 4 samples.

Results

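The CD3 chains are the signalling subunits of the T-cell receptor. They are encoded by CD3D, CD3E, CD3G and CD247, and the last of these encodes the zeta chain. The 4 genes were taken by name from the 32738 human genes of the expression table, and the mouse genes of the same symbols (Cd3d, Cd3e, Cd3g and Cd247) from its 27998 mouse genes, 60736 genes in all. All 4 were found in each species. Bulk RNA of 4 lymphocyte lines served as a baseline for benchmarking single-cell methods, and each line gave 1 stranded mRNA library. The human lines are both T-cell leukaemias, Jurkat of CD4+ and TALL104 of CD8+ type. Of the mouse lines, EL4 is a lymphoma of T cells and IVA12 is a hybridoma, a B-lineage fusion line. All were untreated lines from a cell bank, carried no stated transgene or deletion, and the lines of each species were grown in different media, so that medium and line cannot be told apart. TALL104 alone was grown with interleukin-2. The level of a gene was given as FPKM, which scales the counted fragments to the length of the gene (in kilobases) and to the library total (per 1000000). Each line gave a single library, so no test between lines was possible. The 95% intervals below come from reads recovered from the FPKM and cover counting error only.

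An alpha-beta or gamma-delta T-cell receptor recognises antigen but has almost no cytoplasmic part of its own. It reaches the cell surface together with a CD3 delta-epsilon pair, a CD3 gamma-epsilon pair and a pair of zeta chains, which are joined in the endoplasmic reticulum, so epsilon is used in both CD3 pairs. The cytoplasmic tails of the chains carry ITAMs, pairs of tyrosine motifs that are phosphorylated by LCK or FYN and then bound by the kinase ZAP70. The zeta chain is also used by receptors of natural killer cells. CD3 chains are standard markers of the T lineage and are not made by B cells.

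The human CD3E, CD3D and CD3G genes lie side by side on chromosome 11 within 50432 bases of the hg19 build. CD3E is at chr11:118175445-118186890 on the plus strand, CD3D at chr11:118209790-118213420 on the minus strand and CD3G at chr11:118215059-118225876 on the plus strand. CD3D and CD3G point away from each other, with starts 1639 bases apart. CD247 is on another chromosome, at chr1:167394264-167487877 on the minus strand. The mouse arrangement is the same in mm10. Cd3g (chr9:44969572-44980431, minus), Cd3d (chr9:44981786-44987339, plus) and Cd3e (chr9:44998740-45009627, minus) lie within 40056 bases, the starts of Cd3d and Cd3g are 1355 bases apart, and Cd247 is at chr1:165788681-165877277 on the plus strand. The annotated spans of CD247 and Cd247 overlap the end of POU2F1 and Pou2f1 on the opposite strand, and that of Cd3e overlaps an antisense transcript in the mouse annotation. The libraries were stranded, but the strand setting of the counting was not given in the sources used here.

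The ITAM-coding bases of the chains are printed because the number of ITAMs differs between the chains and because their likeness between species was compared. Reads were counted against human and mouse genes together, and whether this likeness played a part in the counts was not tested. They were read from GENCODE transcripts in coding direction, 5′ to 3′. The capitals mark the 2 tyrosine motifs of each ITAM, from the tyrosine codon to the leucine or isoleucine codon, and each stretch is exonic, coding and spliced from a pair of exons, so its coordinates span an intron. CD3D, CD3E and CD3G each encode 1 ITAM and CD247 encodes 3, in both species.
CD3D human, residues 149 to 163, chr11:118209904-118210171, minus strand: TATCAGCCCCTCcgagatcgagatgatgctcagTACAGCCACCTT
Cd3d mouse, residues 149 to 163, chr9:44986095-44986311, plus strand: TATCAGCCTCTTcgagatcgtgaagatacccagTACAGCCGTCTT
CD3E human, residues 188 to 202, chr11:118185204-118186239, plus strand: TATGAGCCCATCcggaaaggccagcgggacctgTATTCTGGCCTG
Cd3e mouse, residues 170 to 184, chr9:44999549-45000440, minus strand: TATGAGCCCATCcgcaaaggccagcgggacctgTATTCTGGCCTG
CD3G human, residues 160 to 174, chr11:118222381-118223157, plus strand: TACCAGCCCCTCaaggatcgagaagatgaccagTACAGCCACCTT
Cd3g mouse, residues 160 to 174, chr9:44970735-44971268, minus strand: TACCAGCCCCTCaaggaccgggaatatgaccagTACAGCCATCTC
CD247 human ITAM 1, residues 72 to 86, chr1:167407849-167408586, minus strand: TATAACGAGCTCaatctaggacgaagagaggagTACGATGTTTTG
CD247 human ITAM 2, residues 111 to 126, chr1:167403272-167404641, minus strand: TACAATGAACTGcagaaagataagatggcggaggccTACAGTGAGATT
CD247 human ITAM 3, residues 142 to 156, chr1:167400945-167402266, minus strand: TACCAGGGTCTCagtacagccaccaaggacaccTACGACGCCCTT
The CD3E stretch was the most alike between human and mouse, with 44 of 45 bases the same (97.8%), and the CD3D stretch the least, with 37 of 45 (82.2%). CD3G shared 40 of 45 bases, and the 3 CD247 stretches shared 38 of 45, 43 of 48 and 40 of 45. The encoded proteins of CD3D, CD3E, CD3G and CD247 are 171, 207, 182 and 164 residues long in human and 173, 189, 182 and 164 in mouse.

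The libraries held 25286728 (IVA12) to 34783047 (Jurkat) counted reads. Mitochondrial genes took 14.9% and 20.6% of the human FPKM of Jurkat and TALL104, and 5.04% and 4.79% of the mouse FPKM of EL4 and IVA12. The labelled lineages were checked on markers other than CD3. All 5 T-lineage markers (CD2, CD5, CD6, CD7, CD28) had at least 6.94 FPKM in Jurkat, whereas CD28 had 0.989 FPKM in TALL104. B-lineage genes were not all low in the human lines, where CD79A had 16.5 FPKM in Jurkat and 24.6 FPKM in TALL104, and CD79B 4.80 FPKM in TALL104. In EL4, Cd5 had 75.3 FPKM, Cd28 59.9 FPKM and Cd2 17.8 FPKM, but Cd6 had 0.503 FPKM and Cd7 was listed at 0. The T-lineage markers were not all absent in IVA12, where Cd2 had 9.99 FPKM, Cd6 7.04 FPKM and Cd28 1.23 FPKM, while Cd5 and Cd7 had 0.134 and 0.0349 FPKM. In IVA12, Jchain had 1289 FPKM, Cd79b 163 FPKM and Ms4a1 46.5 FPKM, but the B-lineage genes Pax5 and Cd79a had 0.156 and 0.0543 FPKM. IVA12 therefore expressed only part of the B-lineage marker list.

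All 4 chains were abundant in the human T-cell lines, 3 of 4 were abundant in EL4, and none was above 1.15 FPKM in IVA12. The summed level of the 4 chains was 676 FPKM in Jurkat and 577 FPKM in TALL104, 443 FPKM in EL4, but only 1.40 FPKM in IVA12. These sums rest on 44239, 35827, 18391 and 60 reads. Per 1000000 counted reads, the chains took 1272 of the Jurkat library, 1264 of the TALL104 library, 572 of the EL4 library and 2.37 of the IVA12 library. By this measure, which uses no gene length, Jurkat and TALL104 were close to each other.

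**Figure D1:**
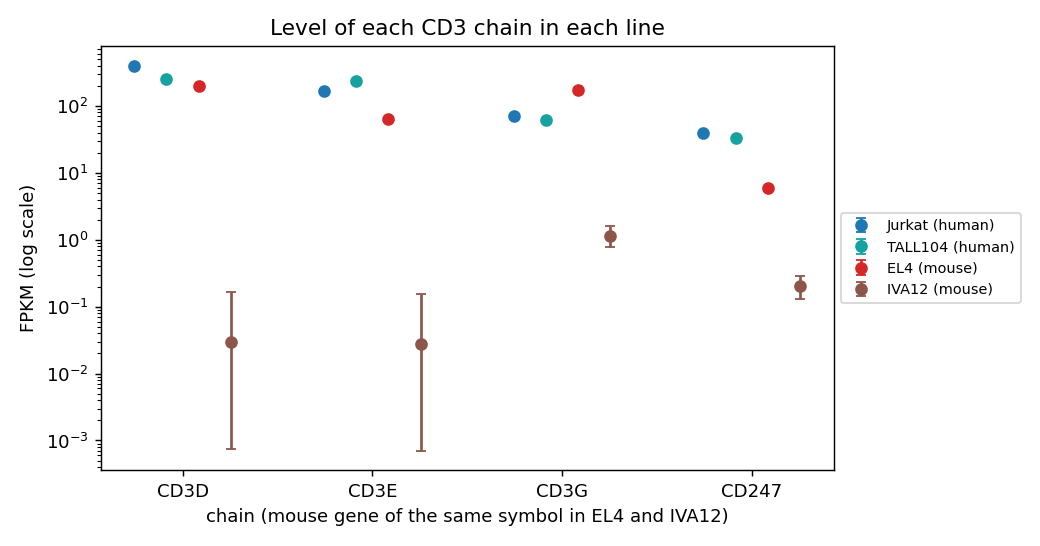
FPKM (log scale) of each CD3 chain in the 4 lines. Points are the single library of a line and bars are exact Poisson 95% intervals of its reads, which for most points in the T-cell lines are narrower than the point. The 3 T-cell lines lie between 5.98 and 400 FPKM, and the IVA12 points lie at or below 1.15 FPKM.

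CD3D, which pairs with epsilon, had the highest FPKM of the 4 chains in each T-cell line, an order that depended on the gene length used. It was at 400 FPKM in Jurkat (393 to 407), 249.8 FPKM in TALL104 (244 to 256), 197 FPKM in EL4 (193 to 201) and 0.0299 FPKM in IVA12, where it rested on 1 read. It ranked 51 among human genes in Jurkat, 75 among human genes in TALL104 and 210 among mouse genes in EL4. The intervals of the 4 lines did not overlap, and the order of the deposited values was Jurkat, TALL104, EL4, IVA12. Comparisons between the species also carry the gene lengths used for human and mouse genes. The other lengths tried came from a different annotation release from the study's, and the reads were not counted again on them. They may include exons on which the study counted no reads. EL4 came first of the T-cell lines with longest transcripts (161 FPKM, against 152 in Jurkat and 95.0 in TALL104) and with all annotated exons (144, against 109 and 68.1 FPKM). With principal transcripts EL4 was the lowest of them, at 161 FPKM against 530 in Jurkat and 331 in TALL104.

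CD3E, the partner in both CD3 pairs, was the only chain that was higher in TALL104 than in Jurkat. It was at 166 FPKM in Jurkat (164 to 169), 233 FPKM in TALL104 (229 to 236), 63.6 FPKM in EL4 (61.3 to 65.9) and 0.0275 FPKM in IVA12, again 1 read. Its rank was 153 in Jurkat, 83 in TALL104 and 834 in EL4.

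CD3G, the other partner of epsilon, had its highest deposited FPKM in EL4. It was at 70.4 FPKM in Jurkat (69.0 to 71.9), 61.3 FPKM in TALL104 (59.9 to 62.8), 176 FPKM in EL4 (172 to 181) and 1.15 FPKM in IVA12 (0.778 to 1.63, from 31 reads). The ranks were 488, 483 and 240 in the T-cell lines. The place of EL4 depended on the gene length. With longest transcripts CD3G was at 100.5 FPKM in Jurkat, 87.5 in TALL104 and 74.2 in EL4. With all annotated exons it was at 70.4, 61.3 and 57.6 FPKM, and per 1000000 reads it took 270, 235 and 188 reads. By these measures EL4 was the lowest of the T-cell lines. With principal transcripts EL4 remained the highest, at 184 FPKM against 100.5 in Jurkat and 87.5 in TALL104. CD3G was the chain with the highest level in IVA12.

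CD247, the zeta chain, had the lowest level in each T-cell line. It was at 38.9 FPKM in Jurkat (37.8 to 39.9), 33.4 FPKM in TALL104 (32.3 to 34.4), 5.98 FPKM in EL4 (5.62 to 6.35) and 0.200 FPKM in IVA12 (0.132 to 0.292, from 27 reads). In the human lines it stood at percentiles 94.0 and 93.5 of the genes above 0 FPKM. In EL4 it stood at percentile 54.1, whereas the other 3 chains there were at percentiles 94.2 to 98.5. Among genes with at least 1 FPKM it was at percentile 31.3 in EL4. With the principal transcript length, CD247 was at 19.5 FPKM in EL4, 98.0 FPKM in Jurkat and 84.1 FPKM in TALL104.

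The first comparison asked how the human T-cell lines differed in each chain. CD3D was 1.6-fold higher in Jurkat (interval 1.55 to 1.65) and CD3E was 1.40-fold higher in TALL104 (1.37 to 1.43), in opposite directions. CD3G was 1.15-fold (1.11 to 1.19) and CD247 1.16-fold (1.12 to 1.21) higher in Jurkat. On the log2 scale of FPKM + 1, the differences of Jurkat over TALL104 were 0.68 for CD3D, -0.48 for CD3E, 0.20 for CD3G and 0.21 for CD247. At a limit of 1.5-fold, 1 of 4 chains (CD3D, higher in Jurkat) was past it, against 25.3% of all human genes in either direction, 13.8% higher in Jurkat and 11.4% higher in TALL104. The share of chains past the limit was thus near that of all genes, and among genes with at least 1 FPKM in either line 62.6% were past it.

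Which chain passed 1.5-fold depended on the scaling. The median log2 ratio of FPKM, without the added 1, was 0.11 in favour of Jurkat, taken over the genes that reached 1 FPKM in each of the lines. After that shift was taken out, CD3D fell to 0.57, below the limit of 1.5-fold, CD3E moved to -0.59, just past it, and CD3G and CD247 came to 0.09 and 0.10. Equal totals without mitochondrial genes gave 0.57, -0.59, 0.09 and 0.11. The mitochondrial share was higher in TALL104, and its part in the differences was tested only by that scaling. The directions of the 4 chains were the same under each of these scalings.

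The ratio between chains within a line does not depend on scaling, and, between lines of the same species, not on gene length either. CD3D was 2.41 times CD3E in Jurkat (2.35 to 2.46) and 1.07 times CD3E in TALL104 (1.04 to 1.10). The CD3D to CD3E ratio was therefore 2.24 times as high in Jurkat as in TALL104 (2.16 to 2.32). CD3G over CD3E was 0.423 in Jurkat and 0.264 in TALL104, a 1.61-fold difference (1.55 to 1.67), and CD247 over CD3E was 0.234 and 0.143, a 1.63-fold difference (1.56 to 1.71). All 3 partner chains were thus higher relative to epsilon in Jurkat. CD3G and CD247 kept nearly the same ratio to each other, with CD3G 1.81 times CD247 in Jurkat (1.75 to 1.87) and 1.84 times in TALL104 (1.77 to 1.91), and these intervals overlap.

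As shares of the summed FPKM, CD3D made up 59.2% in Jurkat, 43.3% in TALL104 and 44.5% in EL4. CD3E made up 24.6%, 40.3% and 14.4% in the same order, CD3G 10.4%, 10.6% and 39.8%, and CD247 5.75%, 5.78% and 1.35%. At the deposited lengths the human lines thus differed in delta and epsilon, while their shares of gamma and zeta were alike. EL4 differed from both in having as its second chain gamma, not epsilon. With the other lengths and by reads, the shares of gamma and zeta were both higher in Jurkat than in TALL104. By longest transcripts gamma was at 20.7% and 18.3%, and zeta at 11.1% and 9.62%. By reads gamma was at 21.2% and 18.6%, and zeta at 12.3% and 10.7%. By reads, with no division by length, CD3E held the largest share in Jurkat (37.2%) and TALL104 (52.4%), and Cd3d the largest in EL4 (45.5%).

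**Figure D2:**
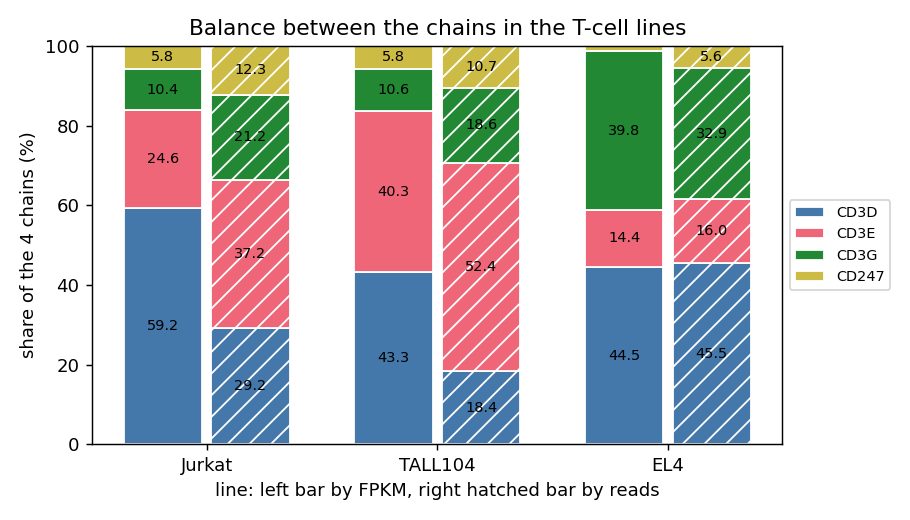
Shares (%) of the 4 CD3 chains in the single library of each T-cell line, by FPKM (left, plain) and by reads (right, hatched). By FPKM the largest part is CD3D in each line, at 59.2%, 43.3% and 44.5%, and by reads CD3E leads in Jurkat and TALL104.

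The range from the highest to the lowest chain was 10.3-fold in Jurkat (9.97 to 10.6), 7.49-fold in TALL104 (7.19 to 7.79) and 33.0-fold in EL4 (30.9 to 35.2), in each case CD3D over CD247. In EL4, Cd3d and Cd3g were near each other, with a ratio of 1.12 (1.08 to 1.16), and Cd3e was 10.6 times Cd247 (9.90 to 11.4). Neighbours in the order differed beyond their counting intervals in each T-cell line, the closest being CD3D and CD3E in TALL104. Whether they would differ beyond the spread between cultures was not measured. At the deposited lengths, each chain was also weighted by its number of encoded ITAMs. CD247 supplied 15.5% of the ITAM-weighted level in Jurkat, 15.5% in TALL104 and 3.95% in EL4. CD3D then supplied 53.1%, 38.8% and 43.3%. The weighted shares were not computed with other gene lengths, under which the unweighted share of CD247 changed.

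These balances turn on the gene length in the FPKM. The annotated lengths below come from another annotation release than the study's, and the same reads are divided by them. The deposited values of CD3D correspond to a recovered length of 929 bases, between its principal transcript (701 bases) and its longest transcript (2443 bases), and less than all its annotated exons together (3408 bases). For CD3E the recovered length of 2844 bases was above all 3 of these lengths in the annotation used here (1361, 2643 and 2659 bases). The recovered lengths of CD247 (4034 bases), Cd3d (1323 bases), Cd3e (1436 bases) and Cd3g (1070 bases) also equalled none of their annotated lengths, while those of CD3G (3836 bases) and Cd247 (5329 bases) equalled all annotated exons. With lengths of the longest transcripts, CD3E was first and CD3D second in both human lines, at 36.9% and 31.4% in Jurkat and 52.3% and 19.8% in TALL104. All annotated exons gave the same order. With principal transcripts, CD3D led in Jurkat (49.3% against 32.3%) and CD3E in TALL104 (49.2% against 33.5%). In EL4, Cd3d led under each length but that of principal transcripts, which put Cd3g at 43.1% and Cd3d at 37.7%. CD247 remained the lowest chain in all 3 T-cell lines under each of the 4 lengths, at 3.66% to 11.1% in the human lines and 1.35% to 4.57% in EL4. By principal transcripts it was close to CD3G, at 9.10% against 9.33% in Jurkat and 8.51% against 8.84% in TALL104.

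**Figure D3:**
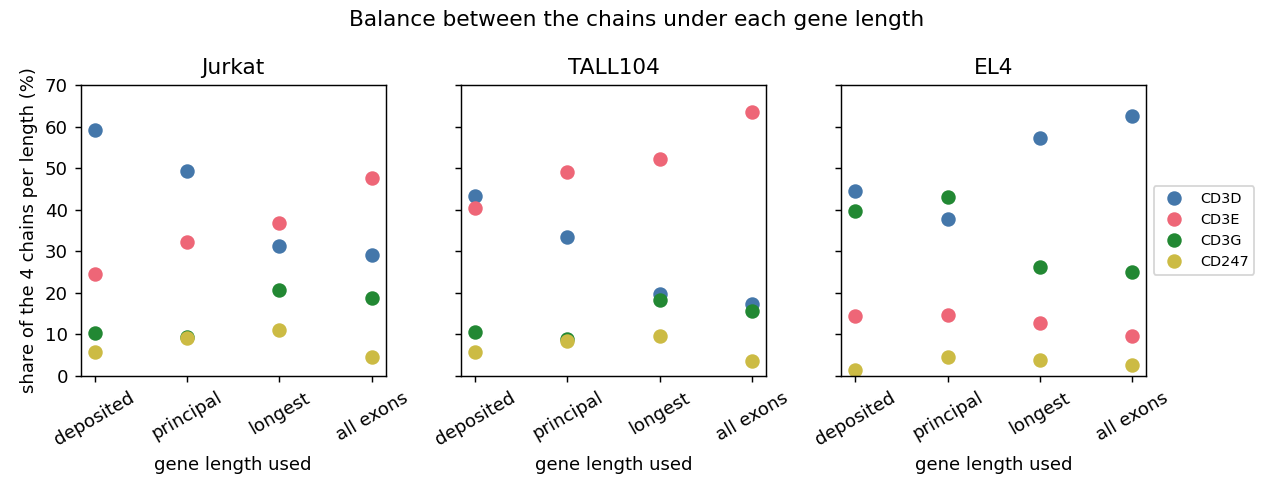
Share (%) of each CD3 chain in the 3 T-cell lines when its reads are divided by the deposited gene length or by the length of the principal transcript, the longest transcript or all annotated exons. CD3D and CD3E exchange places in Jurkat and TALL104, and CD247 is the lowest under each length.

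The ratio of gamma to epsilon was higher in EL4 than in the human T-cell lines under each length. Cd3g was 2.77 times Cd3e in EL4 (2.65 to 2.90), against 0.423 in Jurkat and 0.264 in TALL104. The ratio in EL4 was 6.54 times that in Jurkat (6.22 to 6.88) and 10.5 times that in TALL104 (9.98 to 11.1). With the other lengths it was 3.69 to 10.2 times that in Jurkat and 5.94 to 16.4 times that in TALL104. Zeta relative to epsilon was lower in EL4 than in Jurkat with the deposited lengths, 0.402 times (0.373 to 0.435), but 1.0 to 2.84 times with the other lengths, so this ratio has no stable direction between the species. The share of zeta among the 4 chains was lower in EL4 than in Jurkat and TALL104 under each of the 4 lengths.

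The mouse comparison set a T-cell line beside a B-lineage line. All 4 chains were past 1.5-fold and higher in EL4, against 21% of all mouse genes past it in either direction, 9.75% higher in EL4 and 11.2% higher in IVA12. Among genes with at least 1 FPKM in either line, 50.3% were past it and 23.8% were higher in EL4. On the log2 scale of FPKM + 1, EL4 over IVA12 was 7.59 for Cd3d, 5.97 for Cd3e, 6.37 for Cd3g and 2.54 for Cd247. These values are held down by the added 1 FPKM, since 3 of the chains were under 1 FPKM in IVA12. Without it, Cd3g was 154-fold (108 to 226) and Cd247 29.8-fold (20.4 to 45.5) higher in EL4. The 4 chains stayed past the limit under each scaling tried and at 2-fold.

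The chains were not lower in IVA12 to the same degree. The IVA12 level was 0.0152% of the EL4 level for Cd3d (0.000384 to 0.0846%) and 0.0433% for Cd3e (0.00110 to 0.242%), each from 1 read. It was 0.651% for Cd3g (0.442 to 0.925%) and 3.35% for Cd247 (2.20 to 4.91%). The intervals of Cd3g and Cd247 lay above those of Cd3d and Cd3e, and that of Cd247 above that of Cd3g. Cd3g thus had 31 reads in IVA12 beside 1 read of its divergent neighbour Cd3d. For scale, reads on the human genes CD3E and CD3G numbered 10 and 7 in the IVA12 library, and the part of reads from elsewhere in the Cd3g and Cd247 values was not tested. The difference in the Cd247 percentage also carries its low level in EL4. The share of Cd247 reads that came from the opposite strand, where Pou2f1 had 6.0 FPKM in EL4 against 9.10 FPKM in IVA12, was not tested.

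**Figure D4:**
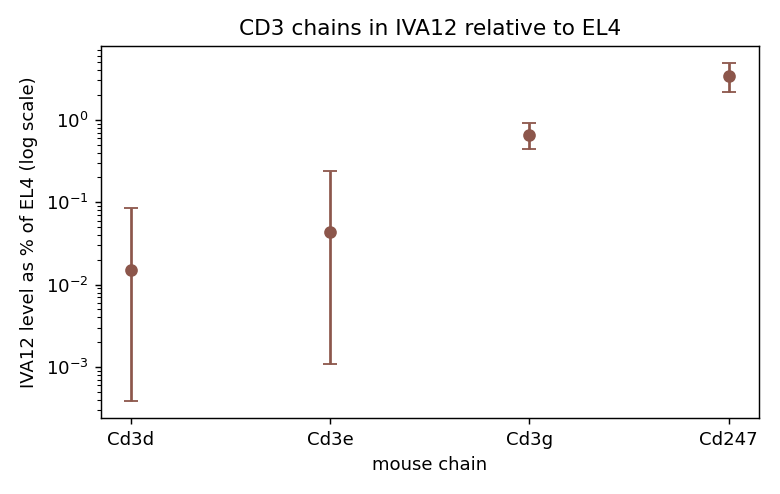
Level of each mouse CD3 chain in IVA12 as a percentage of its level in EL4 (log scale), 1 library each. Bars are exact 95% intervals for the ratio of the reads. Cd3d and Cd3e stand at 0.0152% and 0.0433%, Cd3g at 0.651% and Cd247 at 3.35%.

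The genes that work with the chains were described by lists of fixed membership. Their counts are to be read beside the shares of all genes past 1.5-fold given above. In human 62.6% of genes with at least 1 FPKM in either line were past 1.5-fold, 34.2% higher in Jurkat and the rest in TALL104. In mouse 50.3% of such genes were past it, 23.8% higher in EL4 and the rest in IVA12. The medians of the lists are to be read beside those of all genes at 1 FPKM or more in both lines, 0.10 in human and -0.02 in mouse. Of the receptor chains that pair with CD3, only the pre-receptor alpha gene was in the lists' measured genes. PTCRA had 1.28 FPKM in Jurkat and 0.0628 FPKM in TALL104, and Ptcra was listed at 0 in EL4, with 0.216 FPKM in IVA12. The list also named the receptor constant genes, and none of these was found by symbol among the measured genes.

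Of 12 kinases, adaptors and phosphatases of T-cell receptor signalling, 7 were past 1.5-fold and higher in TALL104, 0 were higher in Jurkat and 5 were within the limit, with a median log2 difference of -0.62. Large differences were in LCP2, the adaptor SLP-76 (16.7 FPKM in Jurkat, 71.2 FPKM in TALL104), and the phosphatase PTPN22 (13.8 and 57.9 FPKM). The CD3 chains had differences of -0.48 to 0.68, and no test of these against the list was made. In mouse, 8 of the 12 were higher in EL4 and 2 in IVA12, with a median of 3.46. Lat (106 and 0.143 FPKM), Lck (96.5 and 0.527 FPKM) and Zap70 (47.8 and 0.0264 FPKM) differed most, and Syk, a kinase related to Zap70 and used by B cells, was listed at 0 in EL4 but at 13.0 FPKM in IVA12.

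Of 10 genes for binding, folding and turnover of the chains, 2 were higher in Jurkat and 2 in TALL104 (median -0.25). They were led by CBLB, a ubiquitin ligase (1.71 FPKM in Jurkat, 20.9 FPKM in TALL104), UBASH3A (8.43 and 53.6 FPKM) and SLA, an adaptor linked to turnover of the receptor (33.2 and 14.5 FPKM). In mouse 6 were higher in EL4 and 1 in IVA12 (median 2.5). Trat1, which encodes a protein bound to the receptor complex, stood at 61.3 FPKM in EL4 but at 0 in IVA12, and Sla and Sla2 had 79.1 and 20.7 FPKM in EL4 beside 2.20 and 0.217 FPKM in IVA12.

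CD3-like subunits with ITAMs from other receptors were a further list. Of the 4, 3 were higher in TALL104 and 0 in Jurkat (median -3.78). The third was CD79B, a subunit of the B-cell receptor, at 0.0415 FPKM in Jurkat and 4.80 FPKM in TALL104, and the fourth, CD79A, was within the limit at 16.5 and 24.6 FPKM. FCER1G, which can pair with zeta in natural killer cell receptors, was at 0.298 FPKM in Jurkat and 94.5 FPKM in TALL104, and TYROBP, also a subunit of natural killer cell receptors, at 0.0317 and 34.0 FPKM. At the deposited lengths, FCER1G in TALL104 was above CD3G and CD247, and TYROBP was near CD247. By reads, with no division by length, both were below: FCER1G had 2582 and TYROBP 873, against 6669 for CD3G and 3816 for CD247. In mouse, Fcer1g had 23.6 FPKM in EL4, above Cd247 there at the deposited lengths, but was listed at 0 in the hybridoma line. By reads Fcer1g was below Cd247 in EL4, at 662 against 1024. Cd79b was at 0.326 FPKM in EL4 but at 163 FPKM in IVA12.

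Of 11 transcription factors of T-cell development, 6 were higher in Jurkat and 2 in TALL104 (median 0.68). LEF1 (141 FPKM in Jurkat, 18.4 FPKM in TALL104), RUNX1 (36.1 and 6.60 FPKM) and TCF3 (37.5 and 8.27 FPKM) differed most. In mouse 8 were higher in EL4 and 0 in IVA12 (median 1.38), led by Tcf7 (597 and 1.14 FPKM), Gata3 (25.7 and 0.0199 FPKM) and Bcl11b (13.3 and 0.0195 FPKM). Whether these factors bear on the CD3 genes was not tested. On median-ratio scaling the counts for Jurkat and TALL104 became 5 and 2 for these factors, 0 and 4 for the ITAM subunits, 2 and 3 for binding, folding and turnover, and remained 0 and 7 for the kinases and adaptors.

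Levels of the genes around the CD3 loci varied widely. Within 200 kb of the CD3E-CD3D-CD3G cluster, 12 other protein-coding genes were measured in human, none above 45.3 FPKM in Jurkat or 32.5 FPKM in TALL104. Past 1.5-fold, 2 of these were higher in Jurkat and 4 were higher in TALL104. TMPRSS4, SCN4B, SCN2B and TTC36 had at most 0.140 FPKM in either line, so the added 1 FPKM holds their ratios near 0. The counts of neighbours are to be read beside the share of all genes past 1.5-fold, 25.3% in human and 21% in mouse. UBE4A, 4439 bases from the cluster, had 29.4 and 26.0 FPKM, and MPZL2, 40194 bases from it on the other side, had 0.0423 and 4.94 FPKM. Of 13 such genes in mouse, 2 were higher in EL4, 4 in IVA12 and 7 within the limit. Of those within it, Tmem25, Ttc36, Tmprss4 and BC049352 had at most 0.257 FPKM in either line. Atp5l, 48830 bases from the cluster and chosen after its value was seen, had the highest level of the 13, at 157 FPKM in EL4 and 180.4 FPKM in IVA12. At the deposited lengths its EL4 level was above that of Cd3e and near that of Cd3g. Ube4a, at 3972 bases, had 14.0 and 23.4 FPKM in EL4 and IVA12, and Mpzl2, at 30172 bases, was at 0 and 6.45 FPKM. The mouse genes at both edges of the cluster thus had lower values in EL4 than in IVA12, opposite to Cd3d, Cd3e and Cd3g.

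Around CD247 in human, 3 genes were measured, with 2 past the limit toward Jurkat and 1 toward TALL104. Around Cd247 in mouse there were 4, with 1 past it toward EL4 and 2 toward IVA12. POU2F1, which overlaps the end of CD247, had 5.88 FPKM in Jurkat and 3.32 FPKM in TALL104. CREG1, 10477 bases away on the other side, had 17.5 and 6.55 FPKM, and its mouse counterpart Creg1, at 13373 bases from Cd247, had 31.5 and 101 FPKM in EL4 and IVA12. RCSD1, the remaining human neighbour, had 25.6 FPKM in Jurkat and 50.6 FPKM in TALL104. At the deposited lengths, CD247 itself stood above all 3 in Jurkat. In TALL104 it stood above POU2F1 and CREG1 but below RCSD1. Cd247 in EL4 was below Creg1 and level with Pou2f1. These places depend on the lengths, since CD247 in Jurkat was at 16.8 FPKM with all annotated exons. Cd247 in EL4 was at 10.8 and 19.5 FPKM with the longest and principal transcripts.

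**Figure D5:**
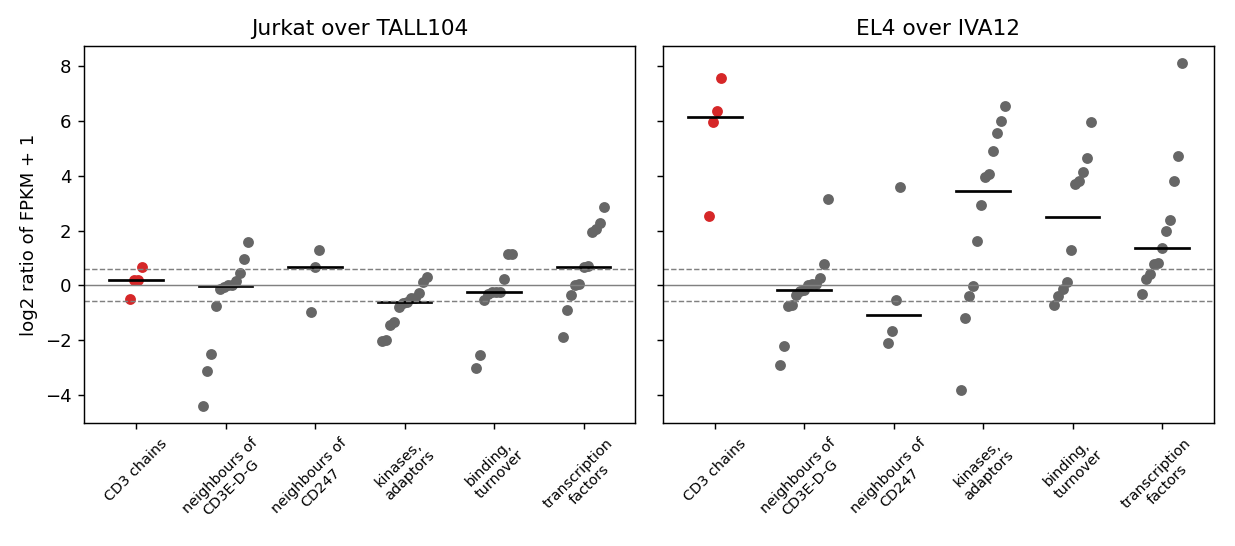
Log2 ratio of FPKM + 1 for the 4 CD3 chains (red) and for their neighbours within 200 kb and partner lists (grey), 1 point per gene, with black bars for medians and dashed lines at 1.5-fold. In Jurkat over TALL104 the chains lie from -0.48 to 0.68, and in EL4 over IVA12 from 2.54 to 7.59, while the median of the cluster's neighbours is -0.02 and -0.16. Some of these neighbours had almost no reads in either line, and the added 1 FPKM holds their ratios near 0.

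The genes whose levels were most like those of the chains were ranked over the 4 lines, by the distance of log2(FPKM + 1) from the mean of the 4 chains. This distance compares levels, so it also carries the gene lengths used. Of 15552 symbols that were unique and shared between the species, 10557 had at least 1 FPKM in a library. The 5 nearest were SASH3 (distance 0.74), ZAP70 (0.98), ITM2A (1.17), LCK (1.21) and PTPN7 (1.66). The levels of SASH3 were 79.9 FPKM in Jurkat, 148 FPKM in TALL104 and 66.9 FPKM in EL4, but 0.236 FPKM in IVA12. The chains themselves stood at 1.29 (CD3E), 1.97 (CD3G), 2.74 (CD3D) and 3.89 (CD247). CD247 was thus the farthest of the 4 from their mean. The 5 named genes were chosen as the nearest to that mean, so their being near it is not a result. With 4 libraries, this order is a description of these lines.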

How the data were processed

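Per the study's methods and the submitters' processing notes, the authors aligned reads with STAR 2.5.1b to a combined hg19 and mm10 reference, counted reads per gene with featureCounts 1.6.3, and deposited FPKM. Gene lengths and the strand and multi-mapping settings were not given in the sources used here. The CD3 members and gene lists were chosen with earlier results of these data known. Reads, library totals and gene lengths were recovered from the FPKM as whole numbers (lengths up to 300000 bases, relative tolerance 1e-12). A factor common to the reads and the length of a gene could be missed. Its recovered reads would then be too few and its interval too wide. Recovery was tested on simulated data. Symbols, positions and transcripts came from GENCODE 44 mapped to GRCh37 and GENCODE M21 on GRCm38, and 1556 human and 276 mouse genes had no symbol. These are not the Ensembl releases that the study names for its reference.

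Levels have exact Poisson and ratios exact binomial intervals at 95%. Differences were log2 ratios of FPKM + 1, with a limit of 1.5-fold and no filter on low values. With 1 library per line no test was made. Named were the 4 chains, up to 3 list genes with the largest differences in each pair of lines, the nearest neighbour on each side of a locus within 200 kb, and the 5 genes most like the chains. The single T-lineage and B-lineage markers and Syk were named after their values were seen, and some list genes are not reported here by name. Alternatives were other pseudocounts, limits, scalings, filters and gene lengths, and the principal-transcript length was added after seeing the data. Python 3.11.15, NumPy 2.4.6, pandas 2.3.3, SciPy 1.17.1 and matplotlib 3.10.9 were used.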

Additional observations from a re-analysis of the deposited data

Results flagged for a closer look

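Reads on human CD3 genes in the mouse line IVA12 were flagged because they lie outside the comparisons and above the limit that a count of 0 allows (3 reads). CD3E had 10 reads and CD3G 7 reads in IVA12, with 3 on CD3D and 1 on CD247. EL4 had 6 reads on the human chains, and Jurkat and TALL104 had 3 and 4 reads on the mouse chains, none of these over 3 for a single chain. Human genes took 566 FPKM in all in IVA12 and 122 FPKM in EL4, and the source of these reads was not tested.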

How the results depend on the processing

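The difference in the summed chains of Jurkat over TALL104, 0.23 on the log2 scale, was 0.11 with median-ratio scaling and 0.12 with equal totals without mitochondrial genes, and that of EL4 over IVA12, 7.53, was 8.20 and 8.29 with pseudocounts of 0.1 and 0.01, since a lower pseudocount draws ratios less toward 1. The range from the highest to the lowest chain with the longest, all-exon and principal lengths was 3.33, 10.6 and 5.41 in Jurkat, 5.43, 17.3 and 5.78 in TALL104 and 15.0, 24.0 and 9.43 in EL4, where FPKM + 1 gave 28.4. The log2 ratio of CD3D to CD3E, 1.27 in Jurkat, 0.10 in TALL104 and 1.63 in EL4, reversed with the longest and all-exon lengths in Jurkat (-0.23 and -0.71, principal 0.61) and with the longest, all-exon and principal lengths in TALL104 (-1.40, -1.87 and -0.55), and was 2.17, 2.68 and 1.37 in EL4. These changes come from the lengths alone. Genes past 1.5-fold numbered 8271 in human, and 12491 and 15323 with pseudocounts of 0.1 and 0.01 and 5022 at 2-fold; in mouse they numbered 5868, and 8780 and 11022 with pseudocounts of 0.1 and 0.01 and 3420 at 2-fold. The other settings left 8 values of the sums and ranges within their counting interval. No paired analysis was possible because each line has 1 library, and no library could be left out. Depth limits Cd3d and Cd3e in IVA12, which rest on 1 read each. With 1 library per line, differences between cultures, library preparation and lines cannot be told apart.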
